A study of Homo sapiens with 12 samples.

Results

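Genes of the ERK output programme, 10 in all, were followed in a human melanoma line, in its total RNA and over a chase of its labelled RNA. They are 3 Sprouty genes (SPRY1, SPRY2 and SPRY4), 3 Sprouty-related genes (SPRED1, SPRED2 and SPRED3), 3 ETS transcription factor genes of the PEA3 group (ETV1, ETV4 and ETV5) and PHLDA1. The genes were listed by symbol, and all 10 were found among the 60675 gene IDs of the deposited tables. Of them, 10 were tested in RNA-seq (19258 genes tested) and 9 in the labelled RNA (13703 genes tested). SPRY1 had too few labelled reads for the test.

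A375 is an established melanoma line with an activated BRAF gene. A375/211 is A375 that overexpresses MIR211, which encodes miR-211; the labels name neither its vector nor whether it is 1 clone. Both lines were grown in the same medium and received no drug. RNA-seq measured total RNA in 2 libraries per line, lettered a and b. In BRIC-seq, cells take up 5-bromouridine (BrU), and RNA that carries it is pulled down at intervals after labelling ends, so that RNA made earlier is followed as it disappears. BrU was given for 24 h, and 1 library per line was made at 0, 1, 3 and 6 h.

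In cells with active BRAF, the kinases RAF, MEK and ERK are on without a receptor signal, and ERK drives transcription of a set of output genes. Sprouty and SPRED proteins are among the products, and both feed back on the pathway: SPRED proteins bring the RAS inhibitor neurofibromin to the membrane, and Sprouty proteins act on the adaptors between receptors and RAS. ETV1, ETV4 and ETV5 are transcription factors whose genes are repressed by CIC (capicua), a repressor that ERK inactivates. Many mRNAs of such output genes carry AU-rich elements in the 3' UTR, which are known to bind proteins that speed decay.

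By position (GENCODE 44, hg38), SPRY1 (ENSG00000164056) lies at chr4:123396795-123403760 on the plus strand, SPRY2 (ENSG00000136158) at chr13:80335976-80341126 and SPRY4 (ENSG00000187678) at chr5:142310427-142326455, both minus. SPRED1 (ENSG00000166068) lies at chr15:38252836-38357249, plus, SPRED2 (ENSG00000198369) at chr2:65310851-65432637, minus, and SPRED3 (ENSG00000188766) at chr19:38388421-38399587, plus. On minus strands lie ETV1 (ENSG00000006468, chr7:13891229-13991425), ETV4 (ENSG00000175832, chr17:43527844-43579620), ETV5 (ENSG00000244405, chr3:186046314-186110318) and PHLDA1 (ENSG00000139289, chr12:76025447-76031776). Antisense or opposite-strand genes overlap SPRY4 (SPRY4-AS1), ETV4 (DHX8), ETV5 (ETV5-AS1) and PHLDA1 (PHLDA1-AS1), so that reads at these 4 loci could be shared.

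The sequence shown first is the microRNA that sets the lines apart, since its seed match can be looked up in each gene. The RefSeq sequence of miR-211-5p (chr15:31065095-31065116, minus strand, GRCh38.p14) is given 5′ to 3′ with the seed, bases 2 to 8, in capitals.
miR-211-5p: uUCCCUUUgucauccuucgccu
The match to this seed, AAAGGGA on the sense strand, occurred in the 3' UTRs of SPRED1 and SPRED2 and in none of the other 8. UTRs are those of the canonical GENCODE 44 transcripts (hg38). SPRED1 held 3 matches in 5588 bases and SPRED2 held 1 in 2653 bases, shown here with 10 bases on each side and the match in capitals.
SPRED1, chr15:38351943-38351949, plus strand: gatccaactaAAAGGGAttaatttttg
SPRED1, chr15:38354460-38354466, plus strand: cttggcttcaAAAGGGAcatcatttga
SPRED1, chr15:38355299-38355305, plus strand: gttaaaatctAAAGGGAaaaacttgaa
SPRED2, chr2:65311882-65311888, minus strand: gtcttcaaggAAAGGGActtttttcca
Such a match is common: 47.7% of 3' UTRs of a length like that of SPRED1 hold at least 1, and 31.3% of those like SPRED2. Length was called alike from 0.8 to 1.25 times that of the gene's own UTR. The shorter match AAGGGA, without the first A, also occurred in SPRY4 (2), SPRED3 (2), ETV1 (1) and ETV4 (1). Of UTRs of like length, 73%, 70.8%, 79.2% and 21.3% hold it.

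An AU-rich nonamer, TTATTTATT on the sense strand, was found in PHLDA1 and SPRED3 alone, and is shown because it is the best-known element of this kind. The other genes held 0. PHLDA1 had 1 match in 4675 bases, and SPRED3 had 5 overlapping matches in 1 run, of which the first is printed.
PHLDA1, chr12:76029797-76029805, minus strand: tgatttatgaTTATTTATTagtttttttt
SPRED3, chr19:38398228-38398236, plus strand: ctcttcctatTTATTTATTtatttattta
The nonamer is in 20.5% of 3' UTRs of a length like that of PHLDA1 and in 15.2% of those like SPRED3. The shorter pentamer ATTTA, which the nonamer contains, was counted with overlaps. It occurred 24 times in SPRED1, 22 times in ETV1 and 14 times in PHLDA1, against medians of 12, 10 and 10 in UTRs of like length. ETV4 held 0 in its 676 bases, where 63% of UTRs of like length hold at least 1. SPRY2 and SPRY4 held 2 and 8, against medians of 1 and 8. SPRY1, SPRED2, SPRED3 and ETV5 held 4, 5, 8 and 4, against medians of 2, 5, 7 and 5. A match is a description of the letters and not of a bound site. Whether such matches bear on decay was not tested.

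The Pumilio element TGTANATA, known to bind decay-promoting Pumilio proteins, occurred on the sense strand in 8 of the 10 genes and not in SPRY1 or SPRED3. Of 15783 3' UTRs, 30.5% hold it. For lengths like those of SPRY2, SPRY4, SPRED2, ETV1, ETV4 and ETV5 the shares were 16.9%, 50.3%, 40.7%, 56.3%, 15.1% and 36.9%. SPRY4, SPRED2 and ETV1 held 3 each, against medians of 1, 0 and 1 in UTRs of like length. SPRY2, ETV4 and ETV5 held 1 each, against a median of 0 for each. SPRED1 held 5 and PHLDA1 held 6, against a median of 1 in UTRs of like length for each, of which 61% and 56.4% hold it. The PHLDA1 matches at UTR positions 1842, 1874, 1920 and 1938 lie close together in a stretch of repeated TATA letters. The part of this element in decay was not tested.

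RefSeq promoter windows, from 250 bases before to 50 bases after a start, were listed for 8 of the 10 genes. ETV4 and ETV5 had no window and could not be searched. The windows were searched on both strands for the CIC octamers TGAATGAA and TGAATGGA, because CIC represses genes of this group. SPRED3 and ETV1 each had 1 match, shown in capitals, while 2.63% of the 35116 windows of all genes hold one.
SPRED3, chr19:38389583-38389622, plus strand: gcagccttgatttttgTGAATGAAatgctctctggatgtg
ETV1, chr7:13991527-13991566, minus strand: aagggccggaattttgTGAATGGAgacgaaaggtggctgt
The match began 192 bases before 1 of the 2 listed starts of SPRED3, an alternative start inside the gene as placed above, and 125 bases before the start at the 5′ end of ETV1. ETV1 has 6 windows and SPRED3 has 2, so these genes had more letters searched than a gene with 1.

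Depth differed by assay. RNA-seq libraries held 20847481 to 34130525 counts and BRIC-seq libraries 2671651 to 7279038. MIR211 itself was listed at 0 counts in both A375 RNA-seq libraries and at 36 and 18 in those of A375/211; in BRIC-seq it was at 0 in all 4 A375 libraries, and at 9, 11, 2 and 3 in A375/211. A count of 0 allows up to 3. Of the melanocyte lineage genes, MITF and SOX10 were present in all 4 RNA-seq libraries, whereas the pigment genes MLANA and TYR were at 0.246 CPM or lower. MITF lay at 253 and 244 CPM in A375 and at 38.8 and 49.0 in A375/211 (edgeR quasi-likelihood test, log2 -2.50, adjusted p = 0.0448). S100B went the other way, at 32.6 and 29.0 CPM in A375 and at 94.6 and 100.1 in A375/211. Its log2 difference of 1.66 did not pass (SE 0.17, edgeR adjusted p = 0.0533). CPM values use TMM-scaled library sizes. In labelled RNA at matched times SOX10 was lower in A375/211 (log2 -1.49, SE 0.31, edgeR adjusted p = 0.0168), against 0.55 in total RNA (adjusted p = 0.393). MITF differed by -0.70 in labelled RNA and did not pass (SE 0.27, edgeR adjusted p = 0.103). The pigment genes DCT (2.05, adjusted p = 0.000332) and PMEL (2.56, adjusted p = 0.032) were higher there, against -0.29 and -1.51 in total RNA, which did not pass. SOX10, DCT, PMEL and S100B were named after their values were seen. The 7 lineage markers summed to 484 to 490 and 381 to 424 CPM in total RNA of A375 and A375/211, and to 112 to 266 and 86.9 to 217 CPM in labelled RNA.

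In total RNA the 10 genes covered a wide range of levels, with SPRY2 and PHLDA1 on top. Per kilobase of exon, the mean level in A375 (n = 2) was 97.1 ± 6.46 (SD) CPM per kb for SPRY2 and 68.8 ± 34.4 for PHLDA1. ETV4 followed at 24.4 ± 1.57, SPRY4 at 19.3 ± 7.96, ETV5 at 14.5 ± 1.83 and SPRED1 at 13.5 ± 1.16. ETV1 (9.84 ± 2.78), SPRED2 (4.44 ± 0.901), SPRY1 (4.32 ± 2.20) and SPRED3 (1.24 ± 1.12) were lowest. Neighbours in this order overlapped within 1 SD of their means, except PHLDA1 and ETV4, and ETV1 and SPRED2. In A375/211 PHLDA1 came first at 123 ± 9.19 and SPRY2 second at 68.0 ± 7.31 CPM per kb.

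Between the lines, 0 of the 10 genes passed the RNA-seq test (edgeR quasi-likelihood test, adjusted p under 0.05 over all genes), where 0.379% of all genes passed. DESeq2 called 0 of the 10 as well, and 748 of all genes. At an unadjusted p under 0.05 there was 1 of the 10 genes, SPRY2, and 2107 of all genes. With 2 libraries per line, the test had 2 residual degrees of freedom.

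Among the Sprouty genes, SPRY2 lay at 327 and 297 CPM in A375 and at 202 and 235 in A375/211. Both A375 libraries were above both of A375/211, with a log2 difference of -0.51 (SE 0.18, edgeR adjusted p = 0.402). SPRY4 lay at 164 and 89.8 CPM in A375 and at 166 and 144 in A375/211, so the lines overlapped. SPRY1, the least abundant Sprouty, was at 11.0 and 23.3 CPM in A375 and at 29.0 and 26.8 in A375/211. Its libraries did not overlap, and the difference of 0.70 (log2, SE 0.38) did not pass (edgeR adjusted p = 0.62).

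SPRED1, which brings neurofibromin to the membrane and holds 3 seed matches, was nearly level in total RNA. Its libraries lay at 111 and 98.0 CPM in A375 and at 100.2 and 100.3 in A375/211 (log2 -0.06, SE 0.17, edgeR adjusted p = 0.96). SPRED2, with 1 match, lay at 28.0 and 20.9 CPM in A375 and at 18.7 and 17.8 in A375/211. All A375/211 libraries of SPRED2 were lower, without passing the test (log2 -0.42, SE 0.22, edgeR adjusted p = 0.583). SPRED3 split by library letter and not by line: it was at 11.9 and 2.64 CPM in A375 and at 15.3 and 2.94 in A375/211, the a library being 4.50 and 5.21 times the b library.

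Of the 3 ETV factors, ETV1 and ETV4 had libraries that did not overlap between the lines, in opposite directions. ETV1 lay at 113 and 75.5 CPM in A375 and at 70.4 and 73.4 in A375/211 (log2 -0.39, SE 0.24). ETV4 lay at 81.9 and 89.7 CPM in A375 and at 103 and 116 in A375/211 (log2 0.35, SE 0.17). ETV5 was at 91.1 and 76.1 CPM in A375 and at 87.3 and 85.4 in A375/211, with the second pair inside the first. None of these passed, with edgeR adjusted p from 0.553 to 0.97.

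PHLDA1, a PH-domain protein gene induced by ERK, lay at 551 and 263 CPM in the 2 A375 libraries, a 2.09-fold gap. In A375/211 it lay at 689 and 766 CPM, above both A375 libraries (log2 0.84, SE 0.38, edgeR adjusted p = 0.53).

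**Figure D1:**
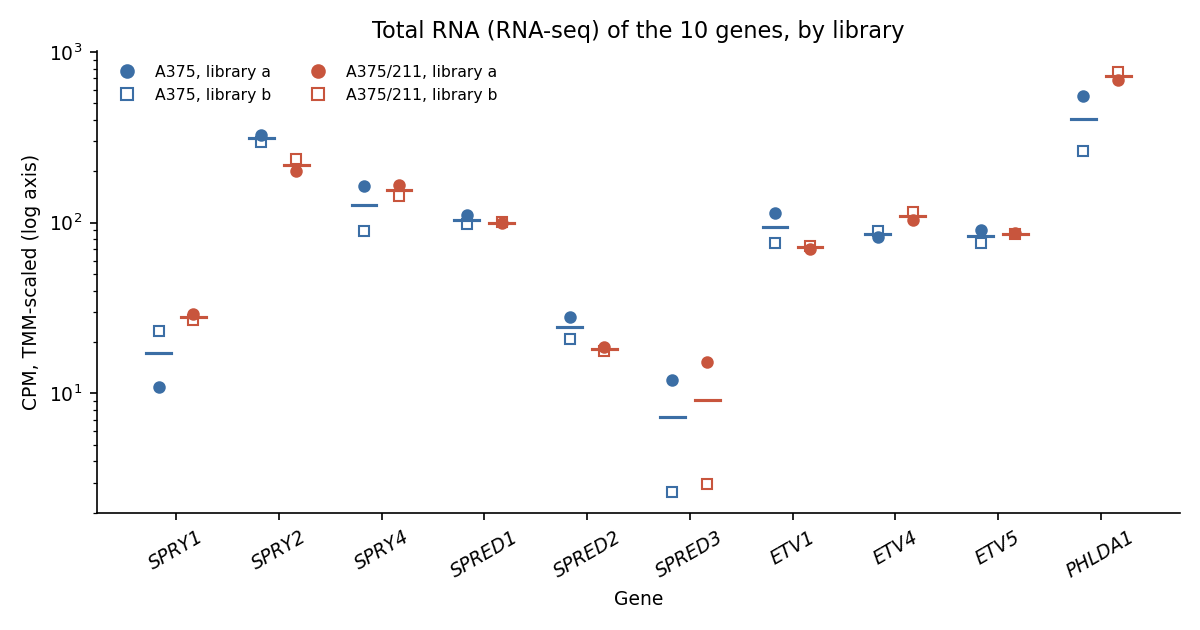
Total RNA of the 10 genes in CPM (TMM-scaled, log axis) for each RNA-seq library; filled circles are library a, open squares library b, and short bars the mean of 2 libraries. SPRED3 separates by letter in both lines, and the A375 libraries of PHLDA1 lie at 551 and 263 CPM.

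In the labelled RNA, 8 of the 9 genes measured fell over the chase relative to the rest of the labelled RNA, and ETV4 rose. Over all genes 34.4% fell and 29.9% rose (edgeR quasi-likelihood test on the mean slope of both lines, adjusted p under 0.05). The median slope of the 9 was -0.45 log2 per hour, against -0.04 over all genes tested. A slope is the log2 change in each hour relative to the other labelled RNAs, after TMM scaling unless another scaling is named. It ranks transcripts and is not an absolute decay rate.

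PHLDA1 fell most steeply. Its labelled RNA lay at 267, 255, 34.9 and 16.3 CPM at 0, 1, 3 and 6 h in A375 and at 771, 844, 140.3 and 71.3 CPM in A375/211. Both lines held their level through the first hour and dropped by 3 h, and A375/211 was higher at each time. The mean slope was -0.69 log2 per hour (SE 0.09, edgeR adjusted p = 0.000224), with 2.45% of all genes lower.

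SPRY2 and SPRY4 dropped in a step between 1 and 3 h. SPRY2 lay at 179, 131, 7.45 and 11.5 CPM in A375 and at 49.8, 38.1, 3.45 and 6.13 CPM in A375/211. SPRY4 lay at 524, 436, 12.7 and 54.2 CPM in A375 and at 103, 95.4, 9.83 and 14.2 CPM in A375/211. Neither gene was lower at 6 h than at 3 h in either line. The level of SPRY4 at 3 h was 2.91% of that at 1 h in A375 (95% interval 2.34 to 3.59) and 10.3% in A375/211 (7.69 to 13.6). For SPRY2 these were 5.70% (4.24 to 7.54) and 9.06% (5.41 to 14.4). With 0.5 added to each count, 0.379% of all genes dropped further than SPRY4 from 1 to 3 h in A375 and 0.635% further than SPRY2. In A375/211 these shares were 1.74% and 1.52%. By 6 h SPRY4 in A375 was again at 427% of its 3 h level (336 to 548). From 3 to 6 h in A375, 98.9% of all genes had a lower change than SPRY4. Both the drop and this rise use the same single 3 h library. Intervals are exact and cover counting error only.

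A straight line described these courses loosely. The mean slopes were -0.66 log2 per hour for SPRY2 (SE 0.15, edgeR adjusted p = 0.00444) and -0.58 for SPRY4 (SE 0.16, adjusted p = 0.0134), with larger standard errors than the other 7 genes had. SPRY1 had counts of 43, 35, 0 and 5 in A375 and of 3, 4, 4 and 0 in A375/211. In A375 its 1 h level was 58.4% of the 0 h level (36.3 to 93.5), and the count of 0 at 3 h allows up to 3.

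The SPRED genes fell after the first hour in both lines. SPRED1 lay at 151, 156, 60.0 and 20.9 CPM in A375 and at 150.4, 166, 72.6 and 27.2 CPM in A375/211. SPRED2 lay at 84.2, 101, 36.0 and 19.1 CPM in A375 and at 76.9, 85.1, 26.7 and 13.0 CPM in A375/211. Neither SPRED1 nor SPRED2 was lower at 1 h than at 0 h, and both dropped at each later step. SPRED3 was scarce, at 16.2, 17.5, 9.11 and 3.21 CPM in A375 and at 14.4, 19.4, 11.6 and 6.37 CPM in A375/211. Mean slopes were -0.48 (SE 0.05, edgeR adjusted p = 5.33e-05) for SPRED1, -0.45 (SE 0.06) for SPRED2 and -0.32 (SE 0.06) for SPRED3.

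The ETV genes had the shallowest slopes of the 9 and differed among themselves. ETV1 lay at 138, 148, 121 and 42.0 CPM in A375 and at 168, 198, 148 and 91.6 CPM in A375/211. It kept most of its level to 3 h, and at 6 h stood at 34.6% of the 3 h level in A375 (29.6 to 40.3) and 61.8% in A375/211 (54.6 to 69.9). ETV5 lay at 53.9, 62.6, 58.5 and 37.0 CPM in A375 and at 47.0, 49.8, 49.6 and 29.2 CPM in A375/211, flat to 3 h and lower at 6 h. The mean slopes were -0.23 (SE 0.05, edgeR adjusted p = 0.00377) for ETV1 and -0.11 (SE 0.04, adjusted p = 0.0401) for ETV5. The call of ETV5 was lost with DESeq2 (adjusted p = 0.0519), with RLE scaling (0.0753) or no count filter (0.216), and without the 6 h library of A375 (0.254) or of A375/211 (0.305), and without the 1 h library of either (0.0902 and 0.096).

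ETV4 went the other way. It lay at 12.1, 11.2, 20.4 and 31.7 CPM in A375 and at 8.16, 9.12, 11.2 and 19.6 CPM in A375/211, highest at 6 h in both lines. Its TMM-scaled level rose by 0.23 log2 per hour (SE 0.04, edgeR adjusted p = 0.000995). That sign depends on the scaling. With the summed glycolytic mRNAs held constant the slope was -0.25, when the median of all genes was -0.52. With total counts, where the slope is that of its share of all labelled counts, it was 0.07 (edgeR adjusted p = 0.201). Relative to the median gene ETV4 stood 0.27 log2 per hour higher under the main scaling, with total counts, and with glycolytic mRNAs held constant. ETV4 was counted on few reads, from 30 to 158 per library, and shares its locus with DHX8 on the other strand.

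**Figure D2:**
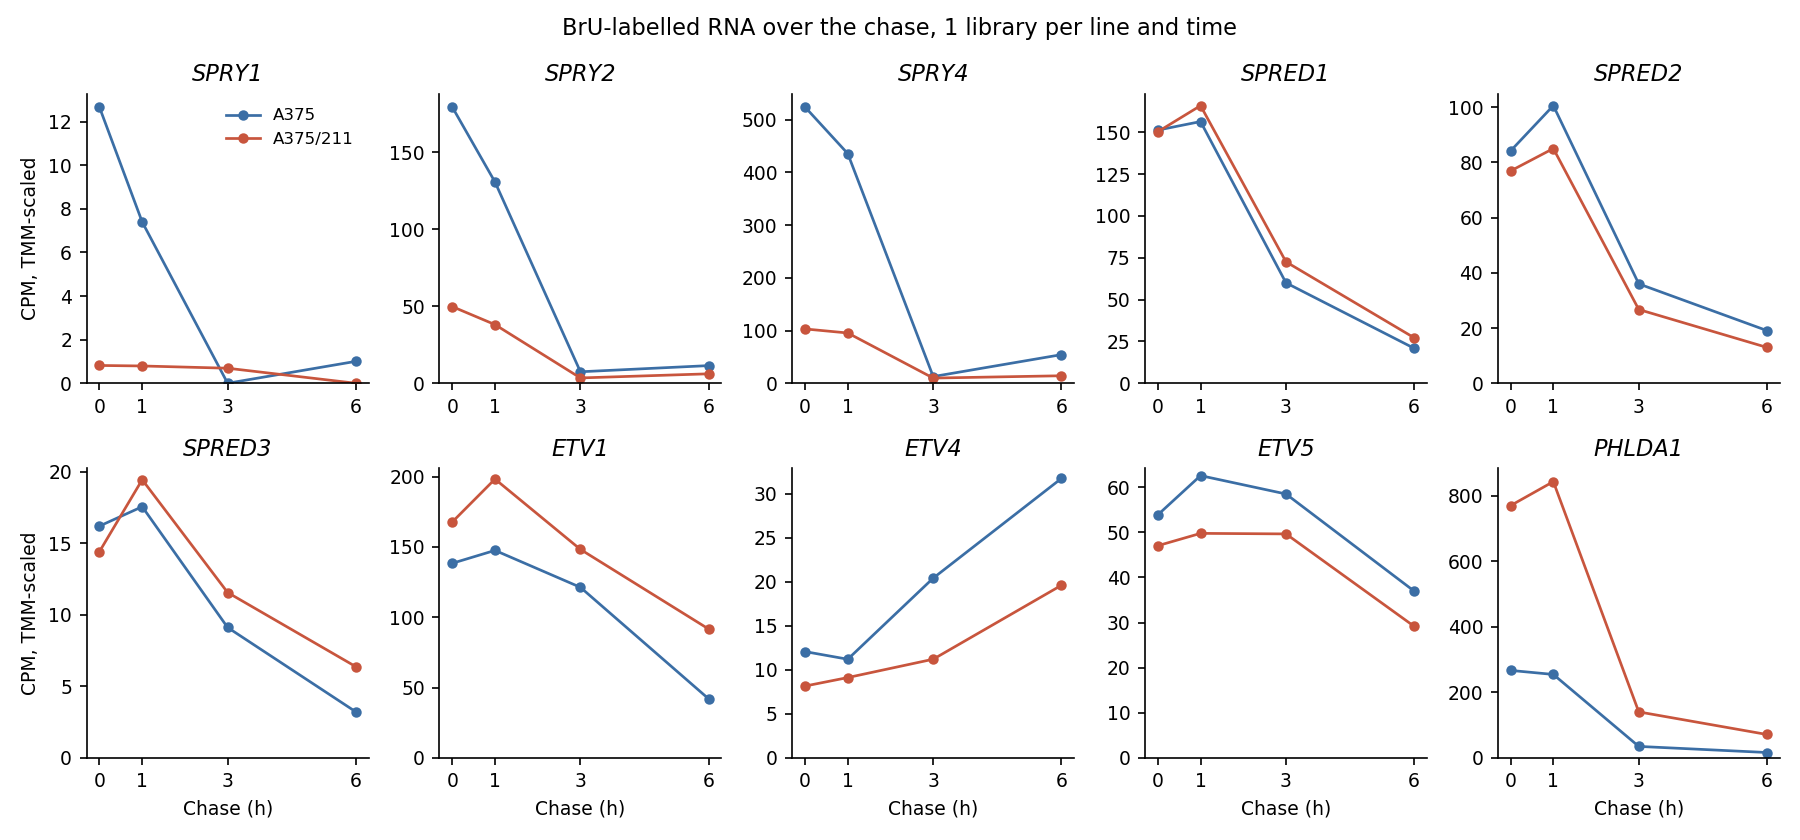
Labelled RNA in CPM (TMM-scaled, linear axes from 0 that differ by gene) at 0, 1, 3 and 6 h of chase, 1 library per line and time, with no error bars because there are no replicates. SPRY2, SPRY4 and PHLDA1 drop between 1 and 3 h, the SPRED genes drop from 1 h on, and ETV4 is highest at 6 h.

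**Figure D3:**
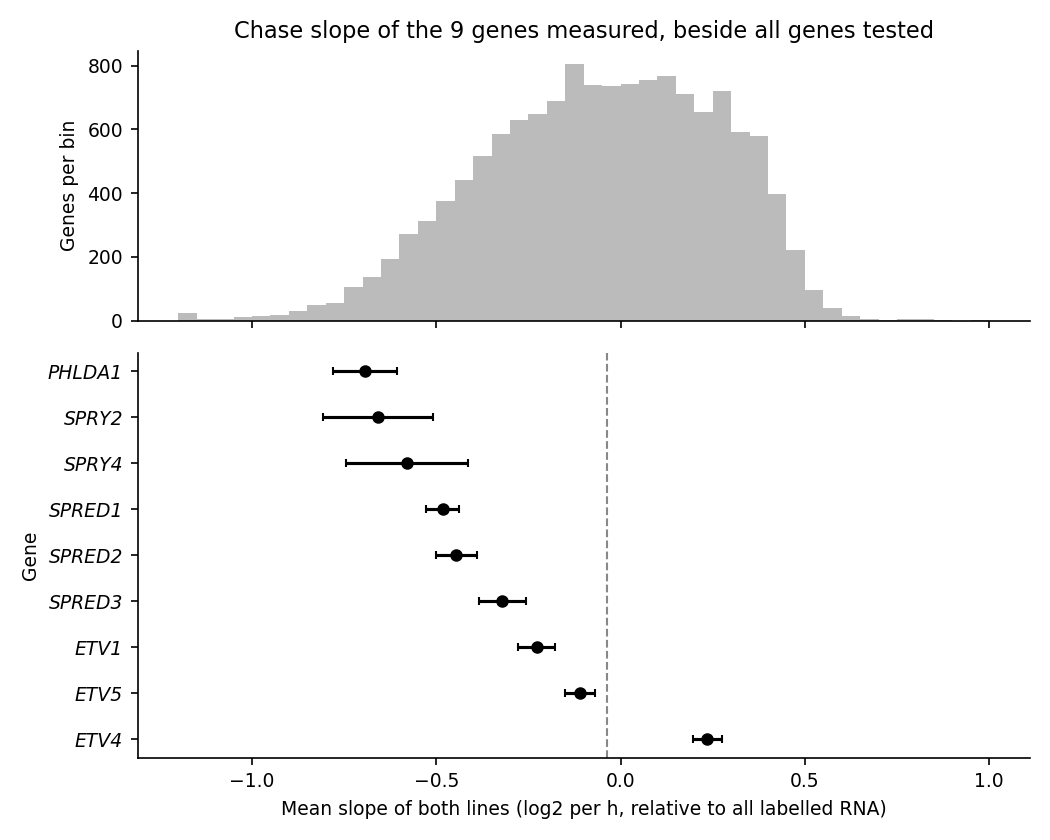
Mean slope of both lines in log2 per hour, as a histogram of all genes tested (top, the end bins collecting values beyond them) and as points with standard errors for the 9 genes (bottom; black passed the test, and all 9 did); the dashed line is the median of all genes, -0.04. PHLDA1, SPRY2 and SPRY4 lie in the left tail and ETV4 lies right of the median.

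Taken line by line, 6 of the 9 genes fell and 1 rose in A375, where 24.2% of all genes fell and 23% rose. SPRY4 (-0.60, SE 0.24, edgeR adjusted p = 0.0745) and ETV5 (-0.10, adjusted p = 0.193) did not pass. In A375/211, 4 fell (SPRED1, SPRED2, SPRED3 and PHLDA1) and ETV4 rose, where 21% of all genes fell and 21.9% rose. SPRY2, SPRY4, ETV1 and ETV5 had slopes of -0.57, -0.55, -0.17 and -0.12 there and did not pass. The SPRED3 call in A375/211 lay near the threshold (edgeR adjusted p = 0.0489). It was lost with DESeq2 (adjusted p = 0.0731), with RLE scaling (0.0614) and with no count filter (0.165). Leaving out any 1 library but the 0 h library of A375/211 also lost it (edgeR adjusted p from 0.0532 to 0.527). Without the 6 h library of a line, 0 of the 9 genes passed in that line, and 0 of all genes did. The slopes themselves did not all shrink: without that library SPRY2 stood at -1.60 in A375 (SE 0.43) and -1.34 in A375/211 (SE 0.48), and SPRY4 at -1.93 (SE 0.50) and -1.22 (SE 0.61). PHLDA1 stood at -1.05 and -0.93, SPRED1 at -0.47 and -0.41, and SPRED2 at -0.45 and -0.58. SPRED3 stood at -0.29 and -0.17, and ETV4 at 0.29 and 0.13. ETV1 was nearer 0 without it, at -0.06 in A375 (-0.30 with it) and -0.10 in A375/211, as was ETV5 at 0.04 and 0.00.

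Passing in one line and not in the other is not a difference between them. The slope difference itself, A375/211 minus A375, was called for 0 of the 9 genes and for 0% of all genes by edgeR. At an unadjusted p under 0.05 there were 0 of the 9 and 527 of all genes, and DESeq2 called 0 of the 9 and 14 of all genes. Differences ran from -0.07 for SPRED2 (SE 0.11) to 0.17 for SPRED3 (SE 0.12). For SPRY4, whose difference was 0.06, the standard error was 0.32, the largest of the 9, so a small value there does not show equal slopes. For SPRED1, with 3 seed matches, the difference was 0.06 (SE 0.09).

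The level of labelled RNA differed between the lines for 4 of the 9 genes at matched times. PHLDA1 was higher in A375/211, where 13.6% of all genes were higher. SPRY2, SPRY4 and ETV4 were lower, as were 12.3% of all genes (edgeR quasi-likelihood test with the chase time in the model, adjusted p under 0.05).

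SPRY4 had the largest negative difference of the 9 genes tested, with a log2 difference of -1.82 (SE 0.31, edgeR adjusted p = 0.00917). It was 5.09-fold lower in A375/211 at 0 h (4.55 to 5.70), 4.57-fold at 1 h and 3.82-fold at 6 h. At 3 h it was 1.29-fold lower (0.918 to 1.83), an interval that includes no difference. SPRY2 differed by -1.50 (SE 0.19, edgeR adjusted p = 0.00332). It was 3.60-fold lower at 0 h (3.05 to 4.27), 2.16-fold lower at 3 h (1.27 to 3.81) and 1.87-fold lower at 6 h. Labelled SPRY1 was not tested, but its summed counts of 83 in A375 and 11 in A375/211 give a 6.90-fold lower level (3.66 to 14.3, counting error only). These 3 Sprouty genes were thus lower at 0 h and at 1 h in A375/211. SPRY3, the other Sprouty gene, is listed among the ERK targets and is named here after its values were seen. On few reads (0 to 21 per library), its labelled RNA fell (mean slope -0.81, SE 0.19, edgeR adjusted p = 0.00594). Between the lines it did not follow the other Sprouty genes, with a difference of 0.26 (SE 0.49, edgeR adjusted p = 0.739). Without the 1 h libraries of both lines, SPRY4 just missed the threshold (log2 -1.61, adjusted p = 0.0519).

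PHLDA1 differed by 1.83 (SE 0.12, edgeR adjusted p = 0.000287). It was 2.89 times as high in A375/211 at 0 h (2.68 to 3.11), 3.31 times at 1 h, 4.02 times at 3 h and 4.38 times at 6 h (3.41 to 5.68). ETV4 was lower in A375/211 by 0.62 on the log2 scale (SE 0.16, edgeR adjusted p = 0.0332), and this call was lost when any 1 of the 4 times was left out (adjusted p from 0.0643 to 0.166).

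The other genes did not pass. ETV1 was higher in A375/211 at each time (log2 0.52, SE 0.16, edgeR adjusted p = 0.0544) and passed with DESeq2 (adjusted p = 0.0156). SPRED2, at -0.33 (SE 0.11, adjusted p = 0.0833), and ETV5, at -0.28 (SE 0.10, adjusted p = 0.0903), were lower at each time. SPRED1 (0.17, SE 0.10) and SPRED3 (0.27, SE 0.21) had positive values within 2 standard errors of 0.

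Markers of other cell types moved with the line in the same BRIC-seq libraries. The 5 fibroblast markers summed to 2.33 to 14.5 CPM in A375 and 26.9 to 149 in A375/211, mostly from LUM, while COL1A2 was at 0 in A375/211 and COL1A1 at 2.45 or lower. The 4 endothelial markers summed to 1.06 to 4.12 and 27.5 to 46.7 CPM, mainly from KDR, with VWF and CDH5 at 0 and PECAM1 at 1.09 or lower in A375/211. The 4 leukocyte markers summed to 1.69 to 7.43 and 6.54 to 51.5 CPM, all from LYZ, with PTPRC and CD3E at 0. The 4 keratinocyte markers summed to at most 4.12 CPM in any library, all from KRT10. In RNA-seq the fibroblast markers summed to 26.1 to 61.3 and 25.8 to 26.9 CPM, with members in opposite directions: COL1A2 lay at 17.2 and 51.0 CPM in A375 and at 0.236 and 0.518 in A375/211, while LUM (4.28 to 5.53 and 11.9 to 12.3), PDGFRB and DCN were higher in A375/211. Endothelial markers summed to 3.58 to 4.18 and 6.04 to 9.19, and leukocyte markers to 1.36 to 2.95 and 0.809 to 1.41. The part of these transcripts in the line differences was not tested. In bulk samples, fewer cells with a transcript and less of it per cell cannot be told apart.

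Labelled RNA of SPRY1, SPRY2 and SPRY4 differed more between the lines than their total RNA did. Labelled RNA at 0 h and total RNA were scaled separately, and the former has 1 library per line, so the values are set side by side with no test. Labelled over total CPM was 4.14 for SPRY4 in A375 and 0.665 in A375/211. For SPRY2 it was 0.575 and 0.228, and for SPRY1 0.739 and 0.0292. The SPRY1 value of A375/211 rests on 3 counts against 43 in A375, a 15.5-fold lower level (4.97 to 78.2, counting error only). Total RNA of SPRY4 and SPRY1 was not lower in A375/211 on average, with log2 differences of the means of 0.29 and 0.71, while labelled RNA at 0 h differed by -2.35 and -3.96. SPRY2 was lower on both scales, at -0.51 in total and -1.85 in labelled RNA (log2). Such gaps were not limited to Sprouty genes. In labelled RNA at matched times and in total RNA, ETS1 differed by 4.09 and 1.05, and SOX10 by -1.49 and 0.55. Of all genes, 13.6% were called higher and 12.3% lower in labelled RNA at matched times, and 0.379% were called in total RNA. Those tests differ in their libraries, and the share of all genes with such a gap was not counted.

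The ratio of labelled to total CPM was closer between the lines for the rest of the 10 genes. For SPRED1 it was 1.45 in A375 and 1.50 in A375/211, and for ETV5 0.644 and 0.545. PHLDA1 was higher in A375/211 on both scales, by 0.84 in total and 1.53 in labelled RNA (log2). ETV4 had the lowest ratio in A375 of the 10 genes, at 0.141 and 0.0744 in the 2 lines. The sign of the log2 line difference changed from total to labelled RNA for ETV1 (-0.39 to 0.28) and ETV4 (0.35 to -0.57). It also changed for SPRED3 (0.33 to -0.17) and ETV5 (0.05 to -0.20). The 0 h labelled ratio, A375/211 over A375, had intervals that included 1 for ETV4 (0.407 to 1.11), SPRED3 (0.599 to 1.32) and ETV5 (0.705 to 1.08). For ETV1 the interval was 1.07 to 1.37. These intervals cover counting error only.

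**Figure D4:**
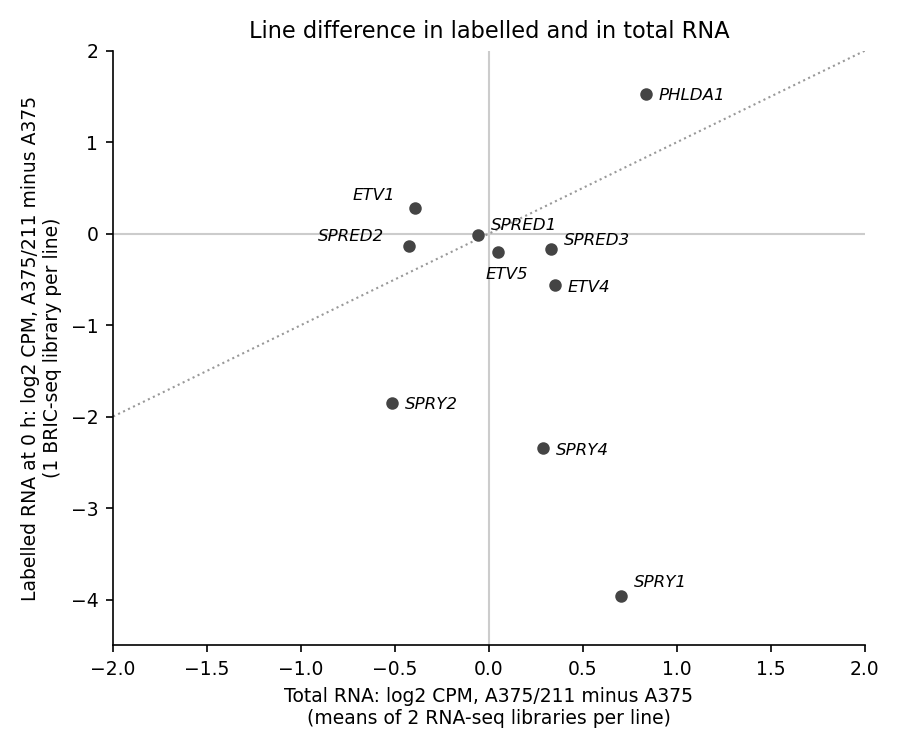
Log2 difference between the lines, A375/211 minus A375, in labelled RNA at 0 h (vertical, 1 library per line) against total RNA (horizontal, means of 2 libraries per line) for the 10 genes; the dotted line marks equal differences. SPRY1, SPRY2 and SPRY4 lie far below it, at -3.96, -1.85 and -2.35 in labelled RNA, and PHLDA1 lies above it.

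The courses of the genes over the 8 BRIC-seq libraries fell into a few shapes. Pearson's r of log2(CPM + 1), which the shared chase and line give much of and which is a description only, was 0.981 for SPRY2 and SPRY4. It was 0.97 for SPRED1 and SPRED3 and 0.95 for SPRED1 and SPRED2. At the other end stood ETV4 and PHLDA1, at -0.961. Over 4271 well-measured genes, SPRY2 was the gene most like SPRY4, followed by the ubiquitin ligase gene UHRF2 (0.956) and the pseudogene MTND1P23 (0.95). For SPRY4, 2 genes reached an r of 0.95 or more, against 246 for SPRED1, 59 for ETV1 and 45 for PHLDA1. The nearest courses were those of BICD1 (0.998) for SPRED1, NUP50 (0.988) for ETV1, and FNIP1 (0.991) and RUNX1 (0.984) for PHLDA1.

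Other output genes of ERK fell as well. Of 18 listed, 14 were measured in the labelled RNA, and 12 fell and 0 rose, with a median slope of -0.45 against -0.04 over all genes, of which 34.4% fell and 29.9% rose. The steepest of the 4 with the smallest p were MYC (-0.84, SE 0.09), the growth regulator, and DUSP4 (-0.79, SE 0.10), a phosphatase that turns ERK off. DUSP5, another ERK phosphatase (-0.61, SE 0.10), and the cytokine gene LIF (-0.50, SE 0.08) were the others.

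The kinases and GTPases upstream moved in both directions. Of 24 genes from RAS to ERK, all measured, 10 rose and 8 fell, with a median of 0.05. Over all genes 29.9% rose and 34.4% fell, so these counts are not a result about the list. PEBP1, which binds and inhibits RAF, rose by 0.43 log2 per hour (SE 0.03), the phosphatase PTPN11 by 0.30 and MAPK3, which encodes ERK1, by 0.40. BRAF, the mutated kinase of this line, fell by 0.26 (SE 0.03).

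Of 14 receptor genes, 10 were measured and 4 rose (AXL 0.28, ERBB2 0.38, FGFR4 0.40 and FGFR1 0.28), with 0 falling. Of the 5 regulators of the ETV factors, 3 fell: ATXN1 (-0.53) and ATXN1L (-0.52), which act with CIC, and DET1 (-0.37), of a ubiquitin ligase that degrades ETV proteins. Of 18 other ETS genes, 13 were measured and 7 fell, among them ELF1 (-0.65), ELF2 (-0.58), ETV3 (-0.58) and ETS2 (-0.43). Lists of 5 to 13 measured genes are short to set against the 34.4% and 29.9% of all genes that fell and rose. Signs near 0 in these lists depend on the scaling, as the ETV4 slope does.

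**Figure D5:**
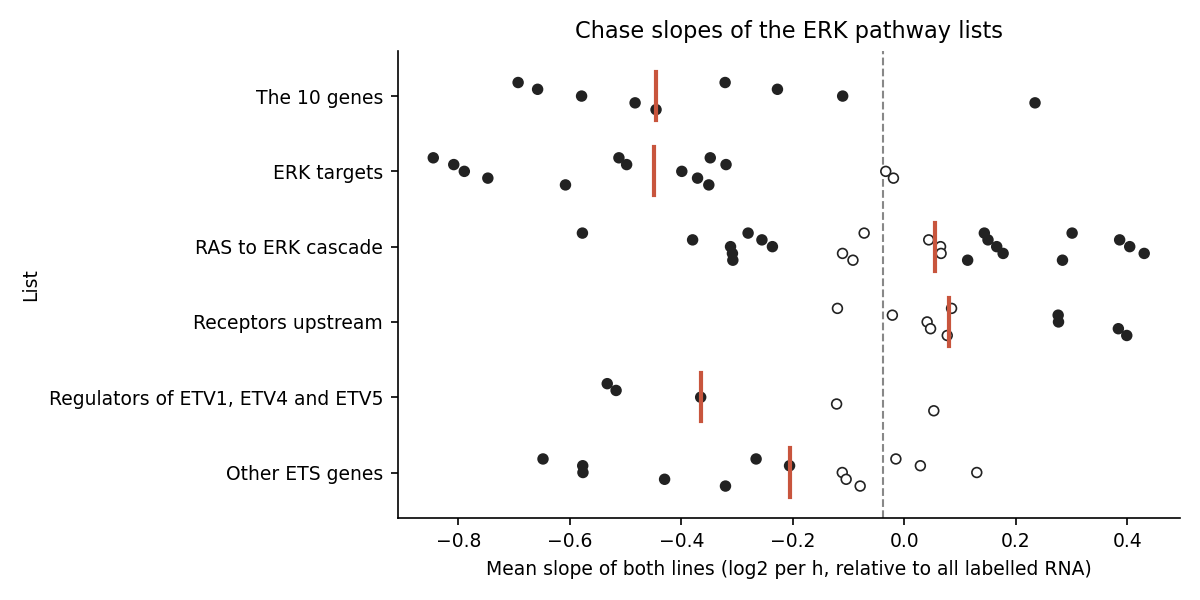
Mean slope of both lines in log2 per hour for each gene measured in the 10 genes and in 5 pathway lists; filled points passed the test, red bars are list medians, and the dashed line is the median of all genes, -0.04. The medians of the 10 genes and of the ERK targets both lie at -0.45, and that of the RAS to ERK genes at 0.05.

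Between the lines at matched times, the ERK targets also moved in both directions. Of the 14 measured, 4 were higher in A375/211: FOSL1 (1.33, SE 0.15), an AP-1 factor, DUSP4 (1.04, SE 0.12), the cyclin gene CCND1 (0.98, SE 0.13) and the receptor gene EPHA2 (0.96, SE 0.14). One was lower, and the list's median was 0.17 against -0.05 over all genes, of which 13.6% were higher and 12.3% lower. Of the 24 genes from RAS to ERK, 7 were higher, with RASA1, a RAS inhibitor, at 1.94 (SE 0.16), and 1 was lower, the GTPase gene RRAS2 (-1.09, SE 0.17). The same shares of all genes, 13.6% and 12.3%, apply to this list and to those that follow.

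Receptor genes AXL (2.21, SE 0.12), MET (1.67, SE 0.25) and EGFR (0.98, SE 0.21) were higher in A375/211, 3 of the 10 measured, and 0 were lower. Of the 5 ETV regulators 1 was lower, ATXN1 (-1.02, SE 0.16). Of the 13 ETS genes 4 were higher, including ETS1 (4.09, SE 0.22), EHF (4.81, SE 0.49) and ELK3 (1.20, SE 0.12), and 2 were lower, including ELF4 (-0.88, SE 0.16). In total RNA, 0 of the 74 genes of these 5 lists that were measured passed with edgeR, and 15 had an unadjusted p under 0.05. DESeq2 called 7 of them: ATXN1, AXL, DUSP4, EPHA2, ETS1, FOSL1 and PDGFRB. EPHA2 alone was also called by edgeR with the library letter as a block (adjusted p = 0.048) and with no count filter (0.0404). The smallest p with edgeR were those of EPHA2 (log2 1.44, edgeR adjusted p = 0.0606) and the receptor gene PDGFRB (1.45, adjusted p = 0.089).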

How the data were processed

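The authors deposited read counts per gene for 4 RNA-seq and 8 BRIC-seq libraries, without normalization. Reads were aligned with HISAT2 2.1.0 and handled with StringTie, per the submitters' processing notes. Notes and design text name different builds (hg19 and hg38), so coordinates come from GENCODE 44 and RefSeq (hg38) and none from the tables. Neither strand setting nor multi-mapping is stated (not given in the sources used here), so counts at SPRY4, ETV4, ETV5 and PHLDA1, which overlap genes on the other strand, are uncertain, as are those of SPRED2 and ETV5, which overlap genes on their own. Symbols were found for 41209 IDs (67.9%). A BRIC-seq row that names no gene (0.000108% to 0.00122% of a library) was left out.

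Counts were tested with edgeR 4.0.16 (R 4.3.3; quasi-likelihood F test, TMM, filterByExpr by line with minimum count 10 and total 15, Benjamini-Hochberg over all genes kept); DESeq2 1.42.0 was an alternative. Standard errors were derived from F (absolute log2 value over its root). RNA-seq had the line as its term. BRIC-seq fits used all 8 libraries: line and hours (mean slope), a line and slope per line, or line with time as a factor, where the 4 times stand in for replicates. Separate cultures are not stated for any libraries, so the p-values reflect only how these samples vary, and that variation may be technical. Alternatives changed the scaling, filter, test, block and libraries. The fits were also run on simulated counts with a fixed spread and, for slopes, straight-line changes. Such counts do not cover stepped courses like those of SPRY2 and SPRY4. All 10 genes are named; from each list, up to 4 genes with the smallest p, and for likeness the 3 highest r among genes whose average log2 CPM was 5 or more. The 10 genes and the lists were chosen with earlier results of these data known. Single values of some listed genes are not reported here.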

Additional observations from a re-analysis of the deposited data

How the results depend on the processing

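In RNA-seq, 0 of the 10 genes passed under each alternative run, including the fit with the library letter as a replicate block (0 called). Nothing in the labels says that the letters pair libraries; deviations of same-lettered libraries had r = 0.337 over 19258 genes. The count of 9 in the mean slope stayed at 8 or 9 under each alternative. ETV4 reversed with glycolytic mRNAs held constant (mean slope -0.25, A375 -0.22, A375/211 -0.27) and with the row without a gene held constant, a scaling chosen after seeing the data (-0.47, -0.42 and -0.53). With total counts it was 0.07 (edgeR adjusted p = 0.201). These 3 scalings moved the all-gene median slope from -0.04 to -0.52, -0.75 and -0.20. The 5 genes called in A375/211 became 8 with total counts, 9 with either of the other 2 scalings and 3 with no count filter. Leaving out 1 library at a time gave 0 to 8 called in A375 (7 with all) and 0 to 7 in A375/211 (5 with all), the 0 each time without that line's own 6 h library. A375/211 had 3 called without its own 1 h library. At matched times, 4 genes were called, 0 without the chase time in the model, and 2 to 4 when 1 time was left out. With glycolytic mRNAs held constant 6 were called, with SPRED2 (log2 -0.81, edgeR adjusted p = 0.00294) and ETV5 (-0.76, 0.00324) added and ETV1 at 0.03, when the all-gene median was -0.53. With the row without a gene held constant 3 were called, ETV4 missing the threshold (edgeR adjusted p = 0.0529). SPRY2 and PHLDA1 kept their calls in each fit with the chase time. The slope difference had 0 called under each alternative. Few reads limit SPRY1, SPRED3 and ETV4.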
